A study of Homo sapiens with 6 samples.

Results

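The genes described here encode the machinery that copies DNA and the enzymes that supply its building blocks. They are 41 of the 37887 rows of a table of raw read counts, chosen by symbol: 5 genes of origin licensing, 12 of the CMG helicase and its partner MCM10, 3 of the single-strand binding protein RPA, 9 of the replicative polymerases, 6 of the sliding clamp and its loader, 2 of Okazaki fragment maturation and 4 of nucleotide supply. All 41 symbols were found and all 41 passed the filter on low counts, which kept 15450 genes. The counts come from RNA-seq of BT-549, an established line of triple-negative breast cancer (TNBC) cells. There were 3 libraries of control cells (shCTL) and 3 libraries of cells silenced for PBRM1 (shPBRM1), the chromatin-targeting subunit of the PBAF remodeling complex. By their titles, the samples carried a control or a PBRM1 shRNA, and the treatment labels give DMSO for the first group and doxycycline for the second. According to the series design, the cells carried a stable doxycycline-inducible (tet) PBRM1 shRNA vector, and received 0.1% DMSO as the vehicle or doxycycline (DOX) at 500 ng/ml. Whether the control libraries hold a separate control shRNA or the uninduced PBRM1 shRNA is not settled by these labels, and an effect of DOX cannot be told apart from an effect of the silencing. A single PBRM1 shRNA in a single cell line is represented.

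In dividing cells, replication is prepared in G1 phase, when the origin recognition complex with CDC6 and CDT1 loads the MCM2-7 ring onto DNA, and geminin (GMNN) later blocks CDT1 so that no origin is loaded again. In S phase, CDC45 and the GINS complex join MCM2-7 to form the active CMG helicase, RPA covers the exposed single strands, DNA polymerase alpha with primase starts each strand, RFC places the PCNA clamp, and DNA polymerases delta and epsilon extend the strands. Ribonucleotide reductase, thymidylate synthase and thymidine kinase supply deoxynucleotides. Many of these genes are known to be transcribed at the G1/S transition through E2F sites in their promoters.

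The promoters are shown first, because members from different steps of replication moved differently in these libraries and the letters near their starts can be set beside those changes. Windows were taken from RefSeq promoter sequences on GRCh38.p14, from 250 bases before to 50 bases after each annotated start, and 35 of the 41 members matched by symbol. MCM4, MCM5, GINS4, POLD3, RPA2 and RPA3 did not match. Both strands were searched for 3 E2F-type words, TTTCGCGC, TTTGGCGC and TTTCCCGC, and for the CCAAT box. Each line gives bases 190 before to 5 after the start, 5′ to 3′ along the gene, with the letters of any of these words (or of their reverse complements) in capitals. The first 4 genes hold TTTCGCGC, the next 4 hold another of the E2F-type words, and RRM1, which had the largest increase, holds none of them. The genes shown were picked and ordered with their changes known, and not every holder of a word is shown. Among those left out are GINS3, which was not called, and CDC6 and CDT1, whose increases were small.
MCM6, chr2:135876439-135876633, minus strand: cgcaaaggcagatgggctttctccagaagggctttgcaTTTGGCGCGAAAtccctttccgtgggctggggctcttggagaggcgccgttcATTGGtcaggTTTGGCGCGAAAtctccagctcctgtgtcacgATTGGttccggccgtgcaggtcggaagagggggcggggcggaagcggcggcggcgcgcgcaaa
MCM3, chr6:52284738-52284932, minus strand: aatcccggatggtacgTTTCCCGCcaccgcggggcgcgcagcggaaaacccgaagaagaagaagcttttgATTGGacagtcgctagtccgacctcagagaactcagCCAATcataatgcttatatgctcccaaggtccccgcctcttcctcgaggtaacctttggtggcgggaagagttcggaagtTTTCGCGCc
MCM7, chr7:100101393-100101587, minus strand: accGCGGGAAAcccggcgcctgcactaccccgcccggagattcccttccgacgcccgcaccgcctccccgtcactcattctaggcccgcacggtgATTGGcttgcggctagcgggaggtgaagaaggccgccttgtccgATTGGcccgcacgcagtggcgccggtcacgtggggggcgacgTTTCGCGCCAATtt
POLA2, chr11:65261772-65261966, plus strand: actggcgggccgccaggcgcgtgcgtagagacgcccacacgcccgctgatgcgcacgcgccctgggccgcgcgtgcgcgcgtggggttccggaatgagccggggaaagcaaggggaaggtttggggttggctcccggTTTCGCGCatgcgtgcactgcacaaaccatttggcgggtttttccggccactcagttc
GINS2, chr16:85688950-85689144, minus strand: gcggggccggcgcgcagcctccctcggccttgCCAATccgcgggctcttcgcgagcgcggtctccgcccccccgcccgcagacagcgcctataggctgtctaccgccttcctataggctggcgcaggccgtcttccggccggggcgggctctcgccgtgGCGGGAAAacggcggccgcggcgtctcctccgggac
POLE2, chr14:49688210-49688404, minus strand: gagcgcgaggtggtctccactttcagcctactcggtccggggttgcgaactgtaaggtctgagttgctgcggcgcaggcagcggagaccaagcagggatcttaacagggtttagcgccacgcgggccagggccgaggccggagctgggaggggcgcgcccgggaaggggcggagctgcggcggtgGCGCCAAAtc
PCNA, chr20:5126618-5126812, minus strand: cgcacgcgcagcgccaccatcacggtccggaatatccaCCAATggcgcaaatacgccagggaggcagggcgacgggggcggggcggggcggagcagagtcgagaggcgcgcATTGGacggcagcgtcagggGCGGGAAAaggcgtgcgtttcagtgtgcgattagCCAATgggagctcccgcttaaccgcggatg
TYMS, chr18:657463-657657, plus strand: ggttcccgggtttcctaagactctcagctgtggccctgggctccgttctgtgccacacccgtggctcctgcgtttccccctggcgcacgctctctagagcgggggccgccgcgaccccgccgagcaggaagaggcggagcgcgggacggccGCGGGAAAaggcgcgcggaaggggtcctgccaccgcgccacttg
RRM1, chr11:4094495-4094689, plus strand: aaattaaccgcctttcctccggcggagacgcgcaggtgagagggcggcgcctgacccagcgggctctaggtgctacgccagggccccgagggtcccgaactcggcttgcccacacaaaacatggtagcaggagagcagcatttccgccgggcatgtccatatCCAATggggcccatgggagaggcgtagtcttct
In MCM6, TTTGGCGC and the reverse complement of TTTCGCGC overlap by 4 letters, at 2 places. Of the 35 member promoters, 17 held at least 1 of the E2F-type words (48.6%), against 2.74% of all 35116 promoter windows in the table and 3.92% of the 16223 windows whose symbol was among the tested genes. CCAAT was in 20 member promoters (57.1%) and in 34.6% of all windows. Such a match describes letters, not a bound site.

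PBRM1 was checked first. The shCTL libraries held 5870, 7619 and 8118 counts of PBRM1 and the shPBRM1 libraries held 2598, 1591 and 2657, without overlap. The log2 fold change was -1.91 (adjusted p = 9.98e-23, the quasi-likelihood test of edgeR, n = 3 and 3). Its standard error (SE), for single genes taken here and below from the spread of log2 CPM between libraries, was 0.027. Library totals were between 36429395 and 65096297 counts, and the groups overlapped in depth. Mitochondrial transcripts took between 3.47% and 4.05% of the counts in shCTL and between 3.01% and 3.45% in shPBRM1 libraries, and their part in the results below was not tested. Of the markers checked, those of mesenchymal-like breast cancer cells were abundant, with summed levels between 5399 and 5598 CPM (a gene's counts per 1000000 of its library's TMM-scaled total) in shCTL and between 4385 and 4655 CPM in shPBRM1 libraries. Of these 5 markers, FN1, ZEB1 and SPARC were lower (log2 fold changes -1.33, -0.55 and -0.37) and CDH2 and VIM were higher (0.54 and 0.31). ESR1 had at most 2 counts in any library and CD3E and ADIPOQ had 0 in all 6. The 6 luminal markers summed to between 5.08 and 6.25 CPM in shCTL and between 1.69 and 2.48 CPM in shPBRM1 libraries, with CDH1 (E-cadherin) lower. The 5 leukocyte markers summed to between 0.938 and 1.30 CPM in shCTL and between 0.800 and 0.848 CPM in shPBRM1 libraries, with CD14 higher and PTPRC lower, and the 3 endothelial markers to between 0.188 and 0.496 CPM and between 0.0257 and 0.0941 CPM. The 3 adipocyte markers stayed at or below 0.159 CPM in sum. The part of these markers in the results was not tested.

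In shPBRM1 cells, most genes of the replication machinery were expressed at a higher level, by less than 2-fold. The 41 genes together took 0.245%, 0.245% and 0.247% of all counts with shCTL and 0.306%, 0.292% and 0.299% with shPBRM1. At an adjusted p under 0.05 (quasi-likelihood F-test of edgeR, Benjamini-Hochberg adjustment over the tested genes), 33 of 41 genes were higher, 2 were lower and 6 were not called. In this comparison 64.7% of all tested genes were called, 31.5% as higher and 33.2% as lower. Among the 9546 genes with a mean level at or above that of the least abundant member, 42.3% were higher. The median log2 fold change was 0.41 over the members and -0.0080 over all tested genes. None of the members changed by more than 2-fold, where 12.6% of all tested genes passed both the test and that fold change, 2.87% as higher and 9.68% as lower. Against a fold change of at least 1.2 (edgeR's glmTreat, adjusted p under 0.05), 25 members were higher and 0 were lower, with 39.1% of all genes called. At an unadjusted p under 0.05, 0 members were lower against that fold change. The largest decrease, that of MCM6 (log2 fold change -0.22), was itself smaller than 1.2-fold, so that this 0 adds little. By the levels alone, 34 members had every shPBRM1 library above every shCTL library and 4 had every one below, where the groups were separate for 68.3% of all genes tested. In these bulk libraries, a larger share of cells in S phase and more of these transcripts per cell cannot be told apart.

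**Figure D1:**
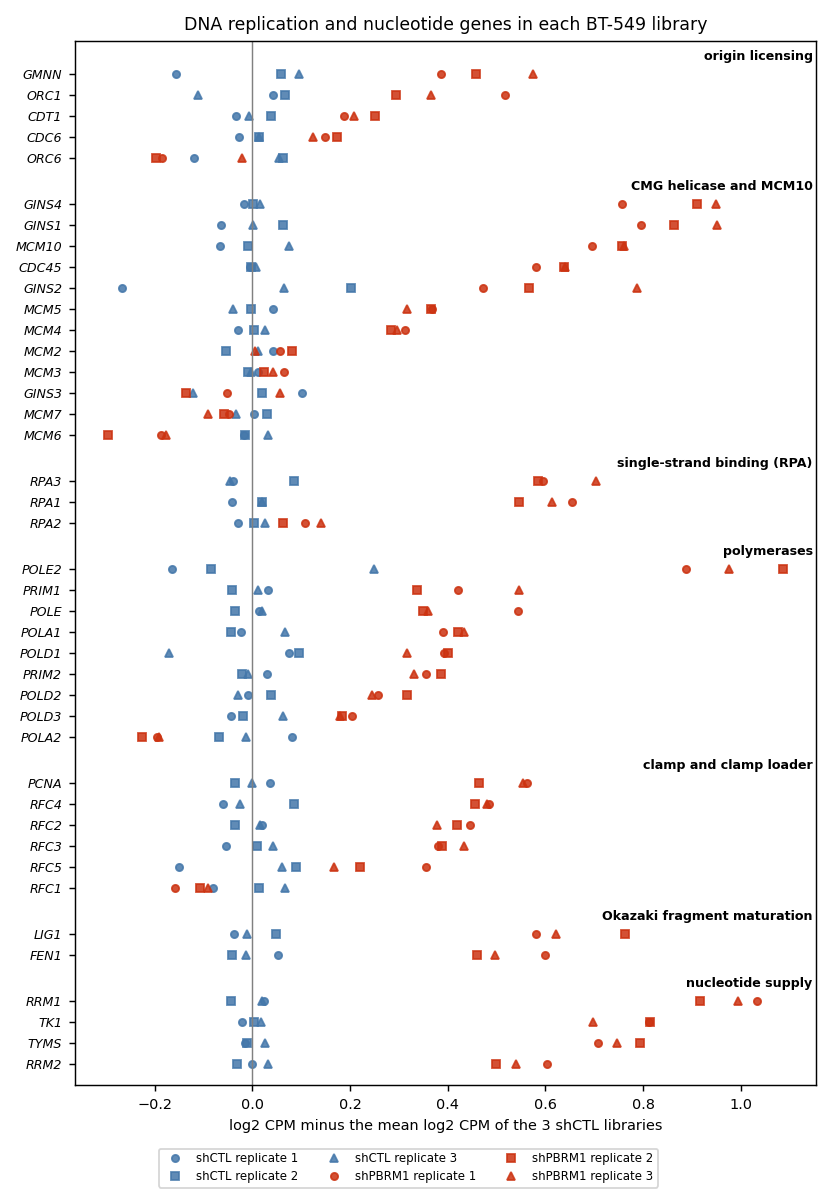
Level of each gene in each of the 6 libraries, as log2 CPM minus the mean of the 3 shCTL libraries (x axis), with genes grouped by role; blue symbols are shCTL, red symbols are shPBRM1, and the shape gives the replicate number. The red symbols of RRM1, POLE2, GINS1 and GINS4 lie farthest to the right, followed by TK1, TYMS and MCM10, while those of MCM2, MCM3, MCM7, GINS3 and ORC6 lie near the blue ones.

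The 4 genes of nucleotide supply showed the highest median, 0.76 on the log2 scale, and all 4 rose. RRM1, the large subunit of ribonucleotide reductase, was at 66.6, 63.6 and 66.4 CPM in shCTL and at 134, 124 and 131 CPM in shPBRM1 libraries. This was the largest increase of the 41 genes, 97.7%, or 0.98 on the log2 scale with an SE of 0.040 (edgeR adjusted p = 1.02e-16), and put RRM1 at percentile 96.7 of all tested genes. RRM2, the small subunit made in S phase, was at 126, 124 and 129 CPM in shCTL and at 192, 178 and 184 CPM in shPBRM1 libraries, a log2 fold change of 0.55 (edgeR adjusted p = 7.22e-12). Both subunits were higher in every shPBRM1 library, by unequal amounts. TYMS, which makes thymidylate from deoxyuridylate, was at 15.4, 15.4 and 15.8 CPM in shCTL and at 25.3, 26.9 and 26.0 CPM in shPBRM1 libraries (log2 fold change 0.75). TK1, the thymidine kinase of the salvage route, was at 23.8, 24.2 and 24.4 CPM in shCTL and at 42.4, 42.5 and 39.2 CPM in shPBRM1 libraries (log2 fold change 0.77). The groups did not overlap for either gene, and the adjusted p-values from edgeR were 2.47e-10 and 1.40e-11. ENOSF1 and TYMSOS overlap exons of TYMS on the opposite strand, AC007240.1 overlaps RRM2 on the same strand, and RRM1-AS1 overlaps RRM1 on the opposite strand, so that reads in those stretches may belong to either gene.

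The ratio of RRM2 to RRM1 was lower in every shPBRM1 library. Per kilobase of exon, RRM2 stood at 1.49, 1.52 and 1.53 times RRM1 in the shCTL libraries and at 1.12, 1.13 and 1.10 times RRM1 in the shPBRM1 libraries. The log2 ratio differed by -0.43 (standard error 0.016). In an exact permutation test (two-sided) p was 0.1, which 3 libraries against 3 cannot go below, and 0.15 after adjustment over the 6 ratios examined here. All 6 ratios were chosen after the values were seen, so that their p-values are no independent support.

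The 12 genes of the CMG helicase and MCM10 did not move together, with 7 higher, 1 lower and 4 not called and a median log2 fold change of 0.32. The factors that turn the loaded ring into a working helicase rose the most, GINS3 excepted. GINS4 went from 18.2, 18.5 and 18.7 CPM in shCTL to 31.2, 34.7 and 35.6 CPM in shPBRM1 libraries, a log2 fold change of 0.87 with an SE of 0.059 (edgeR adjusted p = 1.69e-11). GINS1 had 35.5, 38.8 and 37.2 CPM in shCTL and 64.5, 67.6 and 71.8 CPM in shPBRM1 libraries, also with a log2 fold change of 0.87 (edgeR adjusted p = 1.58e-13). For both genes the lowest shPBRM1 library was well above the highest shCTL library. CDC45 was at 12.6, 12.6 and 12.7 CPM in shCTL and at 18.9, 19.6 and 19.6 CPM in shPBRM1 libraries (log2 fold change 0.62, edgeR adjusted p = 2.26e-08). MCM10, which helps to activate the helicase, was at 30.7, 31.9 and 33.8 CPM in shCTL and at 52.0, 54.2 and 54.4 CPM in shPBRM1 libraries (log2 fold change 0.73, edgeR adjusted p = 4.93e-12). GINS2 was the least abundant of those that rose, at 6.78, 9.38 and 8.53 CPM against 11.3, 12.1 and 14.1 CPM, and its change had the widest 95% interval of the 12, from 0.14 to 1.07 on the log2 scale. GINS3 was the GINS subunit that was not called, with 12.3, 11.6 and 10.5 CPM in shCTL and 11.0, 10.4 and 11.9 CPM in shPBRM1 libraries. Its groups overlapped, its log2 fold change was -0.04 (edgeR adjusted p = 0.723), and its 95% interval was -0.28 to 0.19.

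In the analysis as reported, the MCM2-7 ring itself changed little and not in 1 direction. MCM4 was at 257, 263 and 267 CPM in shCTL and at 326, 319.8 and 323 CPM in shPBRM1 libraries, a log2 fold change of 0.30 with an SE of 0.018 (edgeR adjusted p = 2.84e-07). MCM5 rose from 54.0, 52.4 and 51.0 CPM to 67.7, 67.6 and 65.4 CPM (log2 fold change 0.35, edgeR adjusted p = 4.69e-08). MCM6 instead fell, from 107, 107 and 111 CPM to 95.3, 88.4 and 96.0 CPM (log2 fold change -0.22, edgeR adjusted p = 1.24e-05). The groups did not overlap for these 3 genes. MCM2 had 61.7, 57.7 and 60.3 CPM in shCTL and 62.3, 63.3 and 60.1 CPM in shPBRM1 libraries, so that its groups overlapped, with a 95% interval of -0.05 to 0.15 on the log2 scale. MCM3 had 162, 160.1 and 161 CPM against 169, 164 and 166 CPM, and MCM7 had 185, 189 and 180.5 CPM against 179, 177 and 173 CPM. Neither MCM3 (log2 fold change 0.04, edgeR adjusted p = 0.263) nor MCM7 (-0.07, adjusted p = 0.108) passed the test, although their groups did not overlap. Summed per kilobase of exon, the 6 MCM genes gave 170 ± 0.0945 CPM per kb (SD, n = 3) in shCTL and 176 ± 2.10 CPM per kb (SD, n = 3) in shPBRM1 cells, while the 4 GINS genes gave 17.3 ± 0.759 and 28.9 ± 1.82 CPM per kb (SD, n = 3 each). The length used was the union of all annotated exons, which sets the weight of each gene in these sums. With offsets for GC content and gene length and the replicate number as a block, MCM2 and MCM3 were called higher. Their log2 fold changes in that fit were 0.17 and 0.16, and MCM7 had a log2 fold change of 0.06. The same fit put MCM4 at 0.42, MCM5 at 0.51 and MCM6 at -0.20. With library sizes alone MCM7 was called lower (-0.11), and MCM2 and MCM3 were at -0.0016 and -0.0044. Exons of AP4M1 overlap MCM7, and exons of AC023593.1 and TPRA1 overlap MCM2, on the opposite strand.

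**Figure D2:**
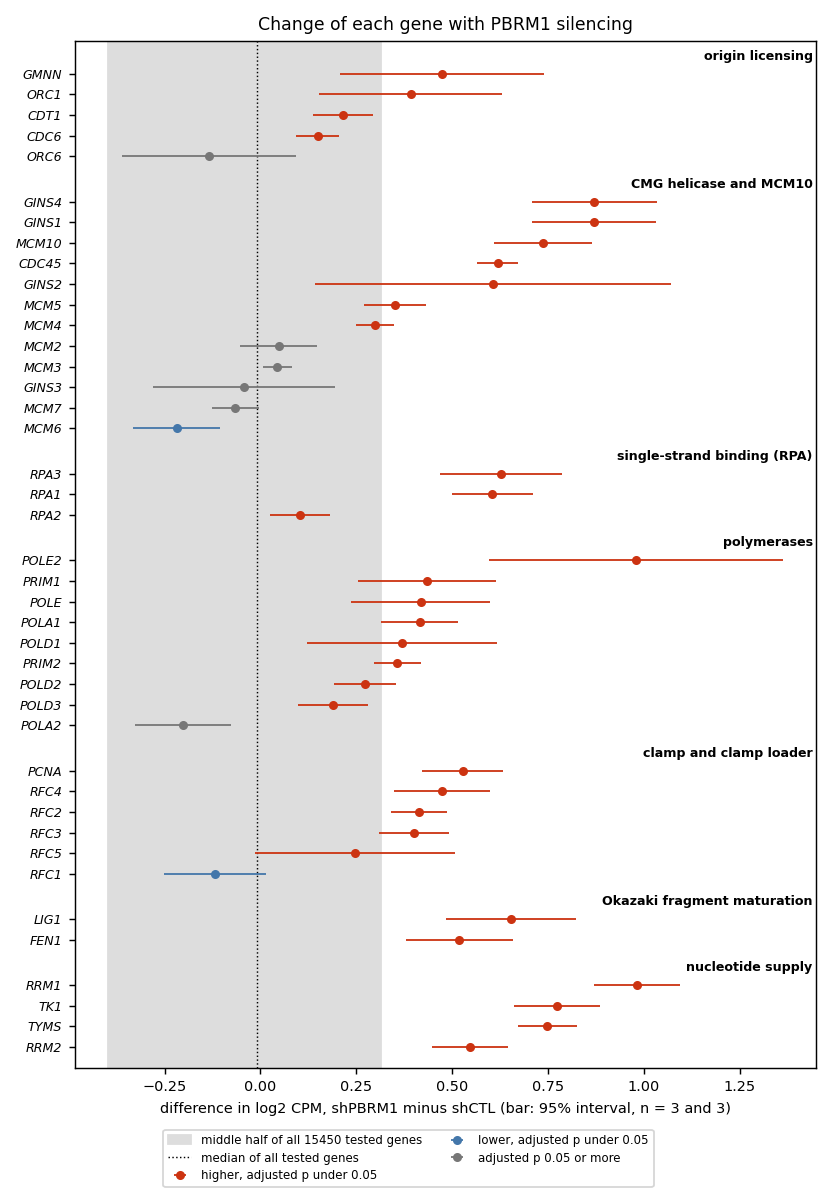
Difference in log2 CPM between shPBRM1 and shCTL for each of the 41 genes (x axis), with 95% intervals from the spread of 3 and 3 libraries; red genes were called higher, blue genes lower and grey genes not called, the grey band is the interquartile range of all 15450 tested genes and the dotted line is their median. No gene lies to the left of the band, and 26 genes have a log2 fold change above its upper end. The MCM2, MCM3, MCM4, MCM6 and MCM7 symbols lie inside the band, as do those of members of other groups, such as CDT1 and RPA2.

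The 5 genes of origin licensing had the lowest median log2 fold change of the groups, 0.21, with 4 higher and 1 not called. GMNN, the inhibitor of licensing, was at 28.0, 32.5 and 33.3 CPM in shCTL and at 40.7, 42.8 and 46.4 CPM in shPBRM1 libraries, a log2 fold change of 0.47 with an SE of 0.096 (edgeR adjusted p = 6.29e-07). ORC1, the subunit of the origin recognition complex whose level varies with the cell cycle, was at 20.6, 20.9 and 18.5 CPM in shCTL and at 28.6, 24.5 and 25.7 CPM in shPBRM1 libraries (log2 fold change 0.40, edgeR adjusted p = 2.19e-05). The groups were separate for both. The loading factors rose less. CDT1 went from 28.1, 29.5 and 28.6 CPM to 32.7, 34.2 and 33.2 CPM (log2 fold change 0.21, edgeR adjusted p = 0.00117), and CDC6 went from 28.5, 29.4 and 29.3 CPM to 32.2, 32.8 and 31.7 CPM (log2 fold change 0.15, adjusted p = 0.0174). The CDC6 call was lost with library sizes alone (log2 fold change 0.10) and without shCTL replicate 1 (0.13). ORC6 had 17.2, 19.5 and 19.4 CPM in shCTL and 16.5, 16.3 and 18.4 CPM in shPBRM1 libraries, with overlapping groups and a log2 fold change of -0.13 (edgeR adjusted p = 0.105). Without shCTL replicate 1 or shPBRM1 replicate 3, or with library sizes alone, ORC6 was called lower, with log2 fold changes of -0.19, -0.19 and -0.18.

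Per kilobase of exon, GMNN stood at 1.34, 1.48 and 1.57 times CDT1 in the shCTL libraries and at 1.68, 1.69 and 1.89 times CDT1 in the shPBRM1 libraries. The log2 ratio differed by 0.26 (standard error 0.086), with p = 0.1 in the exact two-sided permutation test, the smallest this design allows. With offsets for GC content and gene length and the replicate block, the difference was -0.010, and the same offsets moved the median of the origin licensing genes from 0.21 to 0.40.

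All 3 RPA genes were called higher, with a median log2 fold change of 0.60, but RPA2 only narrowly. RPA1, the largest subunit and the main DNA-binding one, was at 172, 179 and 179 CPM in shCTL and at 278, 258 and 270.3 CPM in shPBRM1 libraries (log2 fold change 0.60, edgeR adjusted p = 2.61e-12). RPA3 was at 20.2, 22.0 and 20.1 CPM in shCTL and at 31.4, 31.1 and 33.8 CPM in shPBRM1 libraries (log2 fold change 0.63, edgeR adjusted p = 3.49e-09). Both rose in every library. RPA2, the subunit that is phosphorylated in response to replication stress, was at 44.2, 45.2 and 46.0 CPM in shCTL and at 48.6, 47.1 and 49.7 CPM in shPBRM1 libraries, and its log2 fold change was 0.10 (edgeR adjusted p = 0.0410). The RPA2 call was lost under 9 of the 13 alternatives, among them DESeq2 (adjusted p = 0.0798) and the omission of shCTL replicate 1 (0.138), shCTL replicate 2 (0.0837), shPBRM1 replicate 1 (0.0759) or shPBRM1 replicate 3 (0.134). Opposite-strand exons of SMYD4 overlap RPA1 and those of UMAD1 and AC007161.3 overlap RPA3.

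Of the 9 polymerase genes, 8 rose and POLA2 was not called, with a median log2 fold change of 0.37. POLE2, an accessory subunit of DNA polymerase epsilon, had the largest increase of this group and was the least abundant member in shCTL cells by CPM, at 5.97, 6.32 and 7.95 CPM in shCTL and 12.4, 14.2 and 13.2 CPM in shPBRM1 libraries. Its log2 fold change was 0.96 with an SE of 0.14 (edgeR adjusted p = 9.13e-09), and its groups did not overlap. POLE, the catalytic subunit of the same polymerase, was at 70.3, 67.9 and 70.5 CPM in shCTL and at 101, 88.6 and 89.2 CPM in shPBRM1 libraries (log2 fold change 0.42). In the polymerase alpha-primase complex, the catalytic subunit POLA1 and the primase subunits PRIM1 and PRIM2 had log2 fold changes of 0.41, 0.44 and 0.36, each with an adjusted p under 0.05 from edgeR. PRIM1, the catalytic primase subunit, was at 18.0, 17.1 and 17.8 CPM in shCTL and at 23.6, 22.3 and 25.8 CPM in shPBRM1 libraries. POLA2, the accessory subunit of DNA polymerase alpha, went the other way, with 8.49, 7.65 and 7.95 CPM in shCTL and 7.01, 6.86 and 7.03 CPM in shPBRM1 libraries. Its groups did not overlap, but its log2 fold change of -0.20 had an adjusted p of 0.0535 from edgeR. With the replicate block the adjusted p was 0.0463, without shCTL replicate 2 it was 0.0467, and with GC and length offsets added to the block the log2 fold change was -0.074. A same-strand gene, AP000944.2, overlaps exons of POLA2. The 3 genes of DNA polymerase delta rose by smaller amounts, with log2 fold changes of 0.37 for the catalytic subunit POLD1, 0.27 for POLD2 and 0.19 for POLD3. POLD1 had 24.2, 24.6 and 20.4 CPM in shCTL and 30.2, 30.3 and 28.6 CPM in shPBRM1 libraries, and shCTL replicate 3 was the lowest of the 6. POLD3 had 54.4, 55.4 and 58.5 CPM in shCTL and 64.6, 63.6 and 63.5 CPM in shPBRM1 libraries, the smallest increase among the polymerase genes that passed the test. The ratio of POLE to POLD1 per kilobase differed by 0.048 on the log2 scale (standard error 0.11, p = 0.7 in the exact permutation test), and the POLE and POLD1 increases could not be told apart here.

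PCNA, the sliding clamp, was at 84.8, 80.6 and 82.6 CPM in shCTL and at 122, 114 and 121 CPM in shPBRM1 libraries, a log2 fold change of 0.53 with an SE of 0.038 (edgeR adjusted p = 5.70e-12). Over the clamp and clamp loader the median log2 fold change was 0.41, with 5 higher and 1 lower. Among the loader subunits, RFC4 rose the most, from 40.6, 45.01 and 41.7 CPM to 59.3, 58.2 and 59.1 CPM (log2 fold change 0.47), followed by RFC2 (0.41), RFC3 (0.40) and RFC5 (0.24). RFC5 had 20.2, 23.9 and 23.4 CPM in shCTL and 28.7, 26.1 and 25.2 CPM in shPBRM1 libraries, so that its groups were separate by a small gap. RFC1, the large subunit, was called lower, at 166, 178 and 184 CPM in shCTL and 158, 163 and 165 CPM in shPBRM1 libraries, a log2 fold change of -0.12 (edgeR adjusted p = 0.0106). The RFC1 groups were separated by less than the spread of the shCTL libraries, and without shCTL replicate 3 the call was lost (log2 fold change -0.087, edgeR adjusted p = 0.0722). Per kilobase of exon, PCNA stood at 2.33, 2.07 and 2.05 times RFC1 in the shCTL libraries and at 3.53, 3.19 and 3.35 times RFC1 in the shPBRM1 libraries (log2 ratio difference 0.65, standard error 0.073, exact permutation p = 0.1). That p is the smallest this design allows, and was 0.15 after adjustment over the 6 ratios. It was fixed by the choice of a gene separate upward over a gene separate downward, and adds no support. Annotated pseudogenes carry the names of PCNA, RFC3 and RFC5, among 8 members with such copies, and could take some of their reads.

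Both genes of Okazaki fragment maturation rose. FEN1, the nuclease that trims the flap between fragments, was at 59.9, 56.1 and 57.2 CPM in shCTL and at 87.4, 79.3 and 81.4 CPM in shPBRM1 libraries (log2 fold change 0.52, edgeR adjusted p = 1.05e-10). LIG1, the ligase that seals the nick, was at 18.4, 19.5 and 18.7 CPM in shCTL and at 28.2, 32.0 and 29.04 CPM in shPBRM1 libraries (log2 fold change 0.65, edgeR adjusted p = 3.71e-09). The groups did not overlap for either gene. FEN1 exons overlap FADS2 on the same strand and TMEM258 on the opposite strand.

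Within complexes, subunit transcripts differed more in level than they changed. Per kilobase of exon in shCTL cells, MCM3 was highest in the MCM2-7 ring, at 44.2 ± 0.323 CPM per kb (SD, n = 3), and MCM5 was lowest, at 7.15 ± 0.205 CPM per kb, a range of 6.17-fold. In shPBRM1 cells MCM4 was highest, at 46.3 ± 0.465 CPM per kb, next to MCM3 at 45.5 ± 0.653 CPM per kb, and the library values of these neighbors overlapped. The ratio of MCM3 to MCM4 was 1.21, 1.16 and 1.15 in the shCTL and 0.988, 0.979 and 0.983 in the shPBRM1 libraries (log2 ratio difference -0.25, standard error 0.021, exact permutation p = 0.1). That p is the smallest this design allows (0.15 after adjustment over the 6 ratios), and the pair was chosen after its values were seen. In GINS, the highest subunit, GINS1, was 4.07 times the lowest, GINS3, in shCTL and 7.68 times in shPBRM1 cells. In polymerase alpha-primase, POLA1 was 7.65 times POLA2 in shCTL and 11.8 times in shPBRM1 cells, and in RFC, RFC1 was 3.79 times RFC5 and then 2.94 times. In MCM2-7 the range was 5.08-fold in shPBRM1 cells, and in RPA it was 5.01-fold in shCTL and 4.93-fold in shPBRM1 cells, with 5.54-fold and 5.19-fold in polymerase delta. The range was thus wider with shPBRM1 in GINS and polymerase alpha-primase and narrower in RFC, MCM2-7, RPA and polymerase delta, and these ranges were not tested. The ratio of TYMS to TK1 was 0.483 ± 0.00441 in shCTL and 0.476 ± 0.0251 in shPBRM1 cells (SD, n = 3 each; exact permutation p = 0.7). Exon length here is the union of all annotated exons, which may exceed that of the transcripts in these cells.

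**Figure D3:**
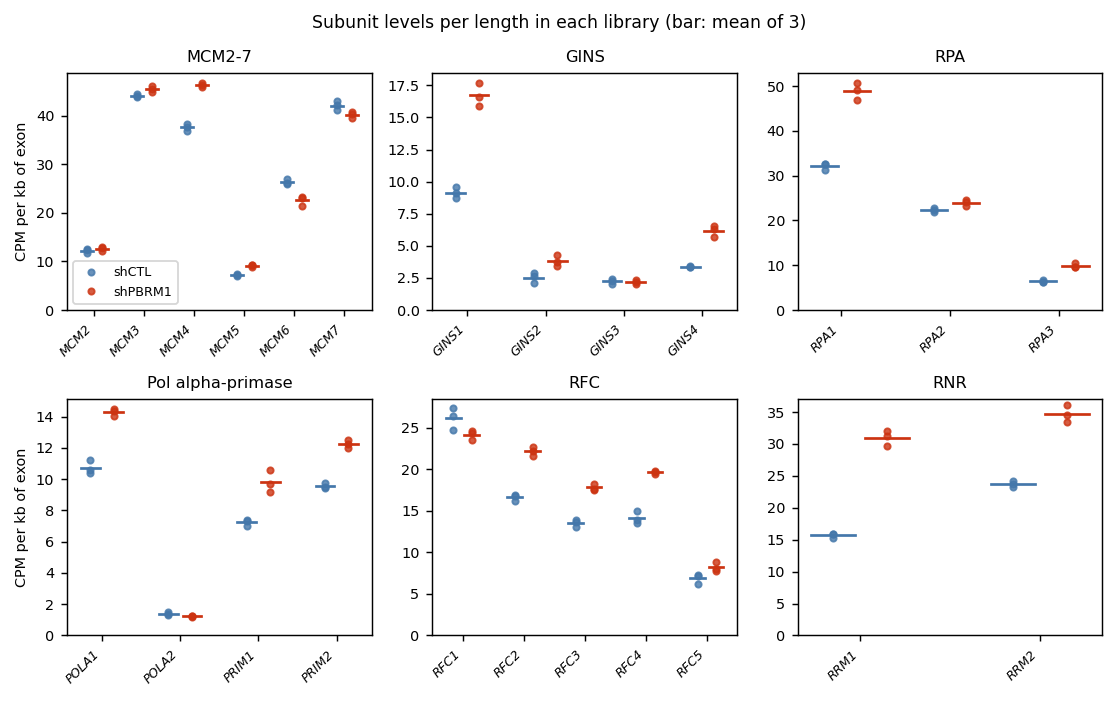
Levels of subunit transcripts in CPM per kb of exon (y axes, from 0) for MCM2-7, GINS, RPA, DNA polymerase alpha-primase, RFC and ribonucleotide reductase (RNR); points are the 3 libraries of each group and bars their means, shCTL in blue and shPBRM1 in red. The red and blue points of GINS1, GINS4, RPA1 and RRM1 are well apart, MCM6 and RFC1 are lower in red, and GINS3 overlaps.

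The calls of the members can be set beside the promoter words shown above. TTTCGCGC was in the windows of 5 members, MCM2, MCM3, MCM6, MCM7 and POLA2, of which 0 were called higher, 1 was called lower and 4 were not called. That split depended on the processing, since MCM2 and MCM3 were called higher with the replicate block and GC and length offsets. TTTGGCGC was in 6 windows, those of CDC6, GINS1, MCM6, POLA1, POLE and POLE2, of which 5 were higher and 1 was lower. TTTCCCGC was in 9 windows, with 6 higher and 3 not called, and 18 windows held none of the words, with 16 higher, 1 lower and 1 not called. Over all promoter windows the shares were 0.515% for TTTCGCGC, 0.652% for TTTGGCGC and 1.63% for TTTCCCGC. The split by single word was made after the values were seen and was not tested. The members lie on 19 chromosomes, with at most 4 on the same one (chromosomes 7, 11 and 16). RRM1, in GENCODE v29 on GRCh38, spans chr11:4094707-4138876, GINS1 spans chr20:25407727-25452628, MCM6 spans chr2:135839626-135876426 and POLA2 spans chr11:65261762-65305589. Across the 41 genes, Pearson's r of the log2 fold change was -0.144 with mean log2 CPM, -0.0975 with GC content and -0.209 with log exon length (Spearman's rho -0.183, -0.128 and -0.272). Over all tested genes, rho was 0.178 with mean log2 CPM (15450 genes), and -0.136 with GC content and -0.1 with exon length (15252 genes). These describe genes measured in the same 6 libraries, not independent replicates.

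Other genes of the same processes were taken from lists of 86 genes, all tested, of which 47 were higher, 15 lower and 24 not called (adjusted p under 0.05 from edgeR), with a median log2 fold change of 0.20. Thus 72.1% of the listed genes were called, beside 64.7% of all tested genes, 31.5% as higher and 33.2% as lower. Among genes at or above the level of the least abundant member, 42.3% were higher. The listed genes of licensing and origin firing had 10 of 16 higher and 2 lower (75% called). DBF4, the activating subunit of the CDC7 kinase that fires origins, was at 45.8, 45.1 and 47.2 CPM in shCTL and at 76.2, 76.5 and 77.8 CPM in shPBRM1 libraries (log2 fold change 0.74), while CDC7 itself was lower (-0.18). Within the origin recognition complex, ORC3 was higher (0.57) and ORC5 lower (-0.36). Other fork, polymerase and maturation genes had 14 of 21 higher and 0 lower (66.7% called), and at an unadjusted p under 0.05 also 0 lower, with a median of 0.38. DNA2, a nuclease-helicase that trims long flaps, was at 13.7, 15.4 and 14.95 CPM in shCTL and at 31.8, 28.3 and 28.99 CPM in shPBRM1 libraries (log2 fold change 1.01), and DSCC1, of an alternative clamp loader, had a log2 fold change of 0.97. Of the genes of this list called higher, TIMELESS and POLE3 had the smallest increases (0.20 and 0.19).

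Of 35 other nucleotide supply genes, 17 were higher and 7 lower, with a median log2 fold change of 0.10. The share called, 68.6%, was near the 64.7% of all tested genes. DUT, which makes deoxyuridylate for TYMS and keeps uracil out of DNA, was at 14.8, 17.6 and 16.1 CPM in shCTL and at 26.6, 28.0 and 28.4 CPM in shPBRM1 libraries, without overlap (log2 fold change 0.77, edgeR adjusted p = 6.54e-10). The lowest were SAMHD1, which degrades deoxynucleotides, at 327, 327 and 337 CPM in shCTL and 47.1, 49.2 and 47.5 CPM in shPBRM1 libraries, and CMPK2, a mitochondrial nucleotide kinase, with counts of 2262, 2896 and 3056 in shCTL and 2, 6 and 6 in shPBRM1 libraries. Both are also interferon-stimulated genes. Over the 14 E2F and pocket protein genes the median was -0.08, with 6 higher and 6 lower (85.7% called). MYBL2, a G1/S and mitotic transcription factor, was at 104, 111 and 107 CPM in shCTL and at 281, 286 and 275 CPM in shPBRM1 libraries, a log2 fold change of 1.39 with an SE of 0.030 (edgeR adjusted p = 2.24e-19), larger than that of any of the 41 members. Besides MYBL2, E2F8 (0.54), E2F1 (0.52), E2F6 (0.21), E2F3 (0.21) and E2F2 (0.20) were higher. TFDP2, an E2F partner, was lower (-0.44), and so were E2F4 (-0.25) and E2F7 (-0.20). The pocket proteins RBL1 (-0.39), RB1 (-0.24) and RBL2 (-0.15) were also called lower, although the RBL2 groups overlapped. TFDP1 (-0.02) and E2F5 (-0.15) were not called.

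**Figure D4:**
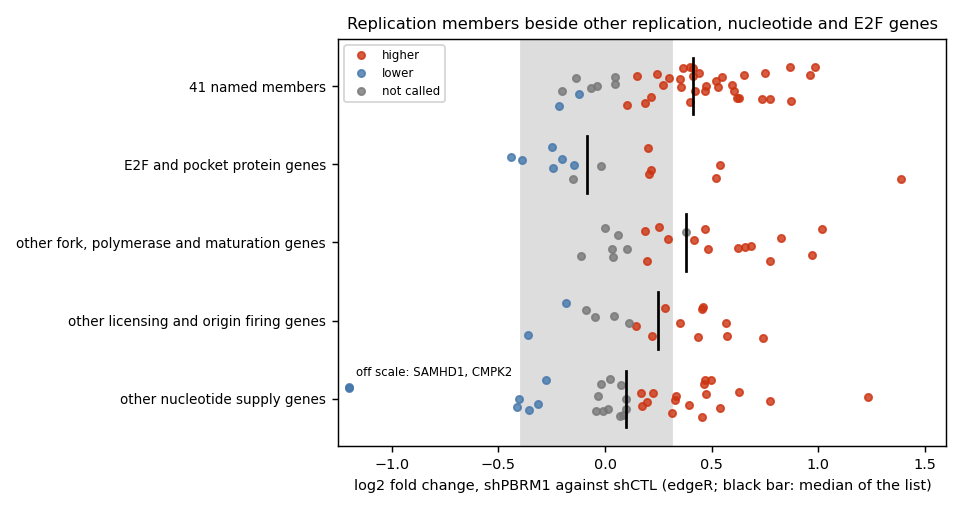
Log2 fold change of shPBRM1 against shCTL (x axis) for the 41 members and for 4 lists of related genes; each point is a gene, red if called higher, blue if called lower and grey if not called, black bars are the medians and the grey band is the interquartile range of all tested genes. SAMHD1 and CMPK2 lie off the scale and are drawn at its left edge, and the medians run from -0.08 for the E2F and pocket protein genes to 0.41 for the members.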

How the data were processed

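Per the labels and the study's methods, RNA was sequenced from 3 shCTL and 3 shPBRM1 cultures of BT-549 cells, reads were demultiplexed with CASAVA 1.8.2 and aligned to GRCh38.p7 with STAR 2.7.9a, and the authors deposited raw counts per gene from featureCounts; the submitters' processing notes also name DESeq2 1.24.0. Strand setting and handling of multi-mapping reads are not given in the sources used here. The members and gene lists were chosen with earlier results of these data known.

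Genes passing edgeR's filterByExpr (15450) were scaled by TMM and tested with edgeR 4.0.16 (glmQLFit, glmQLFTest, R 4.3.3), shPBRM1 against shCTL, with Benjamini-Hochberg adjustment over all of them and a threshold of 0.05. The edgeR fit, without block or offsets, was tried on simulated counts. Levels are CPM, errors between libraries are SD, and the 95% intervals of single genes come from the difference in mean log2 CPM. These intervals and the SEs of single genes do not come from the edgeR fit that gave the fold changes and p-values. They can differ from its calls, as for RFC5, called higher with an interval of -0.013 to 0.51. Library totals of 36429395 to 65096297 counts set 3 counts at 0.0461 to 0.0824 CPM, which covers counting error only. The cultures were described as triplicates, and p-values measure the spread between these libraries. The reported calls, intervals and permutation tests treated the libraries as unpaired. The replicate number entered as a block only in alternatives, although same-numbered libraries deviated together (r = 0.734, 0.593 and 0.419 over 5622 genes). These r values use deviations from each group's mean, and so are not independent of each other. However, 1 differently numbered pair, shCTL replicate 2 with shPBRM1 replicate 3, reached 0.464, above the 0.419 of the replicate 3 pair. Between same-group libraries, counts differed by more than sampling noise (chi-square per degree of freedom 4.92 to 24.9). Of the rows, 14 had names turned into dates. Named genes were all members and, per pathway list, the 2 called genes with the highest and the 2 with the lowest log2 fold change among those with at least 100 counts on average, besides any gene of the E2F and pocket protein list. A gene that this rule names is not reported here. The 6 ratios of member pairs were chosen after the values were seen. Alternatives were DESeq2 1.42.0, RLE factors, library sizes alone, other filters and thresholds, the replicate block, the block with GC and length offsets, and leaving out each library.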

Additional observations from a re-analysis of the deposited data

How the results depend on the processing

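The direction of most member calls did not depend on the processing. The members called higher numbered 33 in the analysis as reported and from 31 to 34 under DESeq2, other scalings and filters, the replicate block and the omission of single libraries, 29 at an adjusted p under 0.001, 25 against a fold change of 1.2 and 0 beyond 2-fold. The members called lower numbered 2, with 5 under library sizes alone, from 1 to 3 with single libraries left out (1 without shCTL replicate 3), 1 at an adjusted p under 0.001, and 0 against a fold change of 1.2 or beyond 2-fold. Over all genes, 443 were higher and 1496 lower beyond 2-fold, and 2674 and 3362 against a fold change of 1.2, where the reported counts were 4863 and 5137. In the pathway lists those counts were 3 and 2, and 30 and 6, against 47 and 15. The stricter thresholds lower these counts by construction.

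With the pairing by replicate number as a block, 33 members were higher and 3 lower, 4973 genes were higher and 5226 lower, and POLA2 was the 1 member whose call changed. With GC and length offsets added to the block, 34 members were higher and 2 lower, and over all genes 5607 were higher and 4645 lower. That fit moved the median log2 fold change to 0.4408 for all members, 0.4008 for licensing, 0.4641 for the helicase, 0.3929 for polymerases, 0.6871 for Okazaki fragment maturation and 0.7944 for nucleotide supply. Library sizes alone gave 0.3647, 0.1653, 0.2752, 0.3173, 0.5382 and 0.712 for the same groups, 0.556 for RPA and 0.3578 for the clamp and its loader. Leaving out single libraries put the polymerase median between 0.3523 and 0.3995. The median over all tested genes moved as well, from -0.0080 as reported to -0.056 with library sizes alone and 0.042 with the block and offsets. The cause of these shifts was not tested. How far depth limited the calls of low-count members such as POLA2 was not tested. The calls of RPA2, RFC1 and CDC6, the smallest changes called, were lost without single libraries.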
